A study of Mus musculus with 6 samples.

Results

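The wild-type baseline of this series consists of 3 of its 6 RNA sequencing libraries, those whose titles name them as wild type, replicates 1 to 3. They were made from muscle stem cells, or satellite cells, of hind-limb muscle of C57BL/6J mice with intact Lmna, which encodes lamins A and C of the nuclear envelope (Lmna Δ8-11 +/+) at postnatal day 19. The cells were sorted by flow cytometry and used freshly, and total RNA, extracted in TRI-Reagent, went into stranded libraries after removal of ribosomal RNA. The other 3 libraries come from homozygous mutants (Lmna Δ8-11 -/-) and were not analysed here. Each condition had 3 mice per the labels, which do not tie libraries to animals or name the surface markers of the sort, so the spread given below (SD, n = 3) is the spread between these libraries, which may in part be technical. No treatment or second genotype enters, and no test was run: all values are levels within wild type.

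Satellite cells lie between the fibre membrane and the basal lamina of skeletal muscle and are marked by the transcription factor Pax7. In the resting state they hold Notch signalling high and the cell cycle closed. When activated they raise Myod1, divide, and then either return to rest or turn on Myog and fuse into fibres. In growing juvenile muscle they still add nuclei to fibres, and the muscle also holds vessels with their smooth muscle and pericytes, nerves with Schwann cells, fibro-adipogenic progenitors, tendon cells and blood cells.

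Gene reads numbered 8426578, 6613636 and 7936471 in replicates 1, 2 and 3. Between libraries, a gene is compared as CPM, counts per 1000000 gene reads after scaling of library totals. Between genes, it is compared as length-scaled abundance, its reads per kilobase of annotated exon, scaled so that nuclear protein-coding genes sum to 1000000. Of 21686 nuclear protein-coding genes, 13016 had a mean of at least 1 CPM, and 13719 genes of any kind reached 1 CPM in each library. Of all 39059 genes in the files, 9280 had a mean of at least 10 CPM, to be set beside the counts of list members below. These 39059 include noncoding genes, and 14538 of them had a mean of at least 1 CPM. The share at 10 CPM among protein-coding genes alone was not computed. For lists of protein-coding genes, 9280 of 39059 may therefore be a low bar. Replicate 2 stood apart from replicates 1 and 3 in several respects. Its counts differed from those of replicates 1 and 3 by a chi-square of 16.97 and 19.6 per gene, where counting error alone gives about 1 and replicates 1 and 3 differed by 9.16. This is an average over genes, to which highly read genes that differ add most. Gm42418, described next, is among them, and the value was not computed without it. Gm42418, a noncoding transcript annotated on chromosome 17, was at 1171, 14439 and 1796 CPM in replicates 1, 2 and 3. Lars2, the mitochondrial leucyl-tRNA synthetase, was at 42.2, 1072 and 252 CPM. Replicate 2 was far above the other libraries for both, and whether these reads come from the 2 genes' own transcripts was not tested. Xist, the RNA that coats the inactive X chromosome, had 5210, 0 and 2 reads in replicates 1, 2 and 3, and the 4 Y-linked genes Ddx3y, Eif2s3y, Kdm5d and Uty summed to 0, 483 and 609 CPM. Replicate 1 was thus the library with Xist and without Y-linked reads, where 0 reads of a gene allow a level of up to 0.343 CPM (3 reads, counting error only).

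Among single RNAs named here, Rn7sk held the largest share of gene reads. This small structural RNA, which holds the elongation factor P-TEFb inactive, took 5.53, 6.61 and 5.62% of gene reads in replicates 1, 2 and 3. Rpph1 and Rmrp, the RNA parts of RNase P and RNase MRP, took 1.82, 2.35 and 1.46% and 1.17, 1.397 and 1.105%. All 3 of these RNAs were highest in replicate 2. Malat1, a nuclear long noncoding RNA, took 1.91, 1.79 and 2.23%, and the mitochondrial ribosomal RNA mt-Rnr2 took 2.33, 2.74 and 3.35%. Nuclear protein-coding genes held 80.3 to 83.8% of gene reads. Within them the reads were spread widely: the 10 highest genes held 5.63 to 6.28% and 50% of the reads were reached with 879, 832 and 860 genes.

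The head of the ranking was formed by chaperones, immediate early genes and smooth muscle genes, not by satellite cell genes. By mean CPM the first 10 nuclear protein-coding genes were Hspa8, Eef1a1, Ahnak, Flna, Acta2, Hsp90aa1, Hspa1b, Myh11, Fos and Actb. Hspa8, a constitutive chaperone, stood at 6264 ± 349 CPM (SD, n = 3), Eef1a1, the translation elongation factor, at 6141 ± 480.1, Ahnak, a giant scaffold protein, at 6104 ± 1143, and Flna, or filamin A, at 5426 ± 564. The first 2 of these differed by less than their spread between libraries. Dividing by length kept 7 of these among the first 10, in another order, and brought in Myl9, Rplp1 and Sparcl1 for Ahnak, Flna and Myh11. Ahnak, with 19938 bases of exon, moved from rank 3 to rank 86, and Rplp1, a short ribosomal protein gene of 499 bases, from rank 174 to rank 9. The 50 highest genes on the 2 scales shared 27 members. Median exon length was 4006 bases for the 50 highest by CPM and 1998 for the 50 highest by length-scaled abundance, against 4602 over nuclear protein-coding genes at 1 CPM or more. Ribosomal protein genes accounted for 1 of the 50 by CPM and 14 of the 50 per length. No member of the satellite cell identity list was among the 50 on either scale, while the pericyte and smooth muscle list gave 6 and 4, the immediate early list 8 and 7, and the myelinating Schwann cell list 2 and 2.

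**Figure D1:**
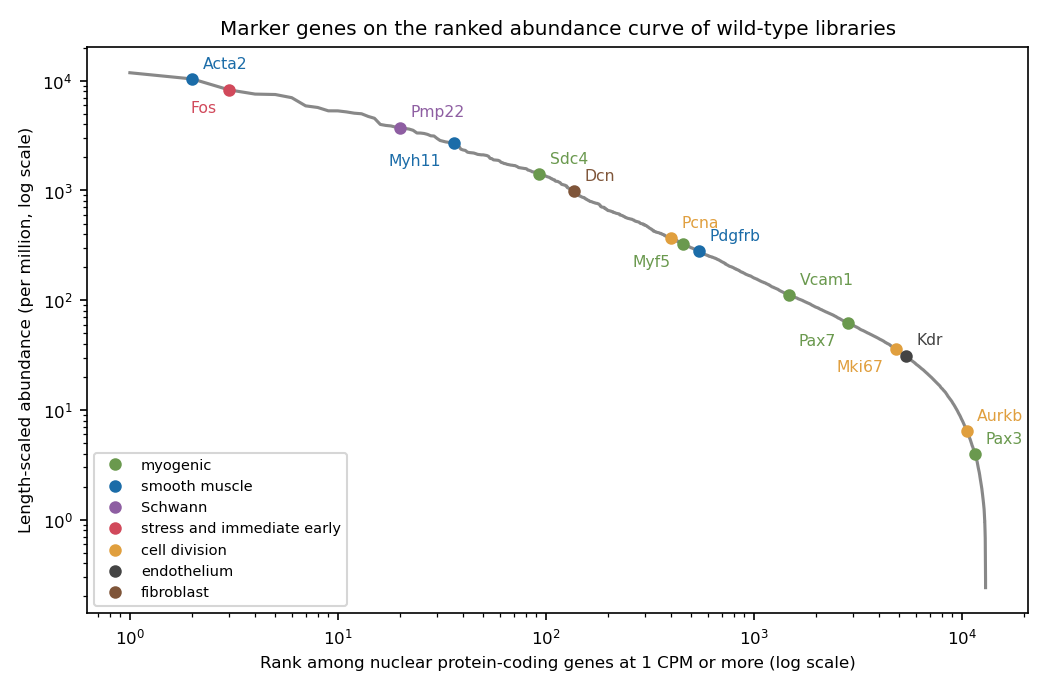
Mean length-scaled abundance (vertical, log scale) against rank (horizontal, log scale) for the nuclear protein-coding genes at 1 CPM or more, means of the 3 wild-type libraries, with marker genes coloured by cell type or process. Acta2 lies at rank 2 and Fos at rank 3, while Pax7 lies at rank 2837 and Pax3 near the bottom of the curve.

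The defining genes of the satellite cell were all read in every library. Myf5, an early myogenic determination factor (coordinates here and below on GRCm38: chromosome 10, positions 107482908 to 107486134, minus strand), was at 331, 318 and 322 in length-scaled abundance in replicates 1, 2 and 3, above 96.5% of nuclear protein-coding genes at 1 CPM or more. Its values lay close together in the 3 libraries. Pax7 (chromosome 4, positions 139737062 to 139833528, minus strand) was lower, at 73.1, 50.3 and 62.7, or 85.8, 65.5 and 74.3 CPM. It was highest in replicate 1 and lowest in replicate 2 on either scale. Per length, Myf5 exceeded Pax7 by 4.53 to 6.32 times in the 3 libraries. Vcam1, an adhesion molecule of satellite cells that endothelium can also carry (chromosome 3, positions 116109949 to 116129688, minus strand), was at 113, 105 and 116, and its CPM of 201, 207 and 208 was nearly level over the libraries. Vcam1 overlaps exons of a gene on the opposite strand. Itga7, the laminin-binding integrin chain, was at 263 ± 24.9, Calcr, the calcitonin receptor of resting satellite cells, at 201 ± 33.6, and Cdh15, or M-cadherin, at 103 ± 22.9 per length (SD, n = 3). Cdh15 was lowest in replicate 3, at 79.6, 79.5 and 51.3 CPM. Of the 6 defining genes, Pax7 was the lowest in abundance and Myf5 the highest.

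Over the whole identity list of 28 genes, 27 reached a mean of 10 CPM, as did 9280 of all 39059 genes. The exception was Pax3, the paralogue of Pax7, at 5.94, 4.71 and 4.54 CPM. The median member was at 103 in length-scaled abundance. Without the members whose exons overlap those of another gene, its mean sum fell from 4644 to 3041 CPM. The summed CPM of the list was 4656, 4589 and 4688 in replicates 1, 2 and 3. Its highest library exceeded its lowest by 1.02-fold, the smallest such ratio among the gene lists. This applies to the CPM sum. The 6 defining genes alone summed to 1155, 1108 and 1024 CPM, and per length the whole list summed to 5170, 4721 and 5324. The leading members were Sdc4, the heparan sulfate carrier syndecan-4, at 1408 ± 194, Dag1, or dystroglycan, at 444 ± 16.5, Chodl, or chondrolectin, at 422 ± 72.9, and Des, the intermediate filament desmin, at 382 ± 22.2. Dag1 and Des are also made by other muscle and vessel cells, and 7 of the 28 genes stand on another of the lists used here. Among the receptors, Cxcr4, the receptor for the chemokine Cxcl12, was at 207 ± 9.69, Fgfr1 at 147 ± 16.6, Fgfr4 at 129.6 ± 28.6, and Met, the receptor for hepatocyte growth factor, at 34.2 ± 4.31. In bulk RNA, a small number of cells of a type and a low RNA content per cell cannot be told apart, here and in all lists that follow.

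Genes tied to rest and to the niche were abundant. The basement membrane collagens Col4a1 and Col4a2 were at 1754 ± 294 and 926 ± 102 per length, Igfbp5, a binding protein of insulin-like growth factors, at 627 ± 16.4, and Rgs5, a regulator of G protein signalling that is also a pericyte marker, at 1444 ± 255. Spry1, a feedback inhibitor of growth factor signalling in resting satellite cells, was at 336, 314 and 344 in replicates 1, 2 and 3, and Col15a1 at 320.5, 280.2 and 259. Hmga2, a chromatin protein of growing myoblasts, had 1, 0 and 1 reads. Of 26 genes, 25 reached 10 CPM, as did 9280 of all 39059 genes, with a list median of 185 per length. On another of the lists used here stand 6 of the 26, and exons of 15 overlap another gene. The cells that made these transcripts were not identified.

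Notch signalling genes were read at every level of the pathway. Among receptors, Notch3, which smooth muscle also makes, was at 298 ± 24.8, Notch2 at 123 ± 17.8, Notch1 at 60.1 ± 7.24 and Notch4, an endothelial receptor, at 5.19 ± 2.01 per length. Among ligands, Jag1 was at 246 ± 12.995, Dll1 at 50.4 ± 11.5 and Dll4 at 22.8 ± 7.39. Among targets, Hes1 was at 524 ± 40.5, Nrarp at 220.4 ± 16.7, Hey1 at 131 ± 17.3 and Heyl at 86.9 ± 13.1. All 20 members had a mean of at least 1 CPM and 16 reached 10 CPM, against 14538 and 9280 of all 39059 genes. In CPM, 15 of the 20 were highest in replicate 1, where 27.9% of all genes at 1 CPM were, and the list summed to 2402, 2258 and 2207 CPM, so the libraries were within 1.09-fold of each other.

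Commitment factors were present beside the identity genes. Myod1, the determination factor of activated cells (chromosome 7, positions 46376474 to 46379099, plus strand), was at 130.3, 97.99 and 114 per length in replicates 1, 2 and 3, with the libraries close together. Myog, the factor of terminal differentiation (chromosome 1, positions 134289989 to 134292548, plus strand), was at 316, 284 and 152, or 94.6, 94.4 and 45.99 CPM. Replicates 1 and 2 were alike for Myog and replicate 3 stood lower by 2.05-fold in CPM. Per length, the order in each library was Myf5, Myog, Myod1 and Pax7, although Myf5 exceeded Myog by no more than 1.12-fold in replicates 1 and 2. Myf6, the factor of mature fibres, had 3, 0 and 2 reads. Cdkn1c, which encodes the cell cycle inhibitor p57, was the highest member of the commitment list at 449 ± 67.4, followed by Myog, Jam3, a junctional adhesion molecule, at 249 ± 12.2, and Myod1. The fusion genes were low: Mymk, or myomaker, had 49, 49 and 26 reads and Mymx, or myomerger, 15, 8 and 5. Chrna1, of the muscle acetylcholine receptor, was at 45.4, 41.2 and 30.1 CPM.

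Transcripts of mature fibres were scarce. The highest of 30 contractile genes was Acta1, the skeletal actin, at 116, 109 and 69.8 per length in replicates 1, 2 and 3, followed by Actc1, the cardiac actin of young muscle, at 94.2, 93.5 and 35.8, Tcap, the titin cap protein, at 63.03 ± 16.8, and Actn3, a fast-fibre actinin, at 61.1 ± 15.3. The median member was at 5.83 per length. Of the 30, 9 reached 10 CPM, and of all 39059 genes, noncoding ones included, 9280 did. The share among nuclear protein-coding genes alone was not computed. Ckm, the muscle creatine kinase, had 43, 40 and 49 reads and Myh3, the embryonic myosin, 27, 12 and 12. The fast myosin Myh4 had 41, 22 and 24 reads, and the fast troponins Tnnt3 and Tnni2 were at 15.1 ± 2.302 and 5.59 ± 2.18 per length. Of the 27 members at 1 CPM, 21 were lowest in replicate 3, where 34.8% of all genes at 1 CPM were. Among members at 10 CPM, 5 of 9 lay at least 1.5-fold below both other libraries there, against 0.636% of all genes at 10 CPM. The list summed to 387, 377 and 256 CPM, so Myog and the fibre genes were low in the same library. The actin genes Acta1, Actc1, Acta2 and Actg2 share long stretches of near-identical coding sequence, and reads that could not be placed uniquely were not counted, so their levels are uncertain to that extent.

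**Figure D2:**
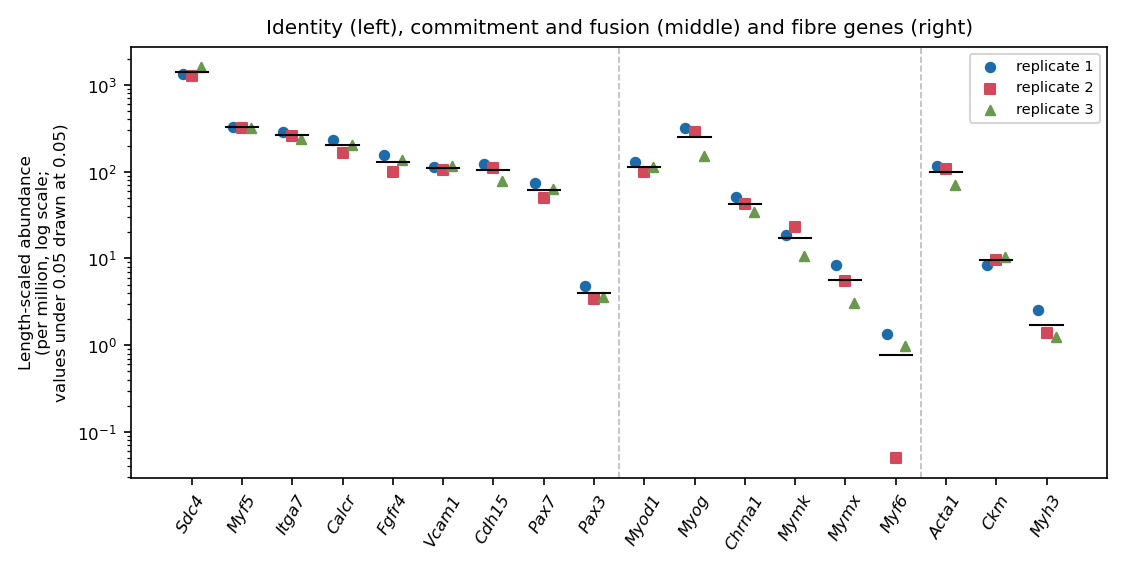
Length-scaled abundance (log scale) of 18 myogenic genes in each of the 3 wild-type libraries; points are libraries and black bars their means, and values under 0.05 are drawn at 0.05. Identity genes other than Pax3 stand between 62.1 and 1408, Myod1 and Myog stand among them, and fusion and fibre genes stand lower, apart from Acta1.

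The genes of the immediate early and dissociation response had the highest median length-scaled abundance of the gene lists, at 919. Such genes are induced within minutes by growth factors and stress, tissue dissociation among them. Fos, a subunit of the transcription factor AP-1, was at 8999, 7492 and 8261 per length in replicates 1, 2 and 3, rank 3 of all nuclear protein-coding genes. Its CPM of 4238, 3915 and 3928 was nearly the same in the 3 libraries. The inducible heat shock gene Hspa1b was at 5282, 4410.5 and 3499 CPM and its near-identical neighbour Hspa1a at 3733, 3079.5 and 2536 CPM. Both were highest in replicate 1 and lowest in replicate 3, and reads may be shared between them. Atf3, a stress-induced transcription factor, was at 3774 ± 193 per length, Junb at 3148 ± 306, Jun at 3135 ± 369, Dnajb1, a co-chaperone, at 2339.8 ± 489, and Egr1, an early growth response factor, at 737 ± 100.2. All 27 members reached 10 CPM, as did 9280 of all 39059 genes. The lowest was Egr3 at 11.6. Fos exceeded Pax7 per length by 123 to 149 times within a library. The list summed to 32039, 29188 and 27612 CPM.

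Other cell types' transcripts were checked with lists of markers, each with its defining genes. The smooth muscle and pericyte markers were the highest. Acta2, the smooth muscle actin (chromosome 19, positions 34241090 to 34255590, minus strand), was at 10436, 12510.3 and 8174 per length in replicates 1, 2 and 3, or 4588, 6105 and 3629 CPM. It was highest in replicate 2 and lowest in replicate 3. Acta2 exceeded Pax7 per length by 143, 249 and 130.3 times in the 3 libraries. All 7 defining genes of the type were above 10 CPM, a level that 9280 of all 39059 genes reached. Besides Acta2, Tagln, or transgelin, was at 5199 ± 797 per length, Myh11, the smooth muscle myosin, at 2682 ± 203, and Rgs5 at 1444. Pdgfrb, a pericyte receptor, was at 279 ± 31.8, Cnn1, or calponin, at 255 ± 72.7, and Cspg4, the proteoglycan NG2, at 85.7 ± 8.07. Myl9, a myosin light chain that many cells make, was at 7488 ± 1706. The median defining marker of smooth muscle exceeded the median defining marker of the satellite cell by 7.58 to 10.1 times. Tagln overlaps 2 genes on the opposite strand. The 20 genes summed to 18600.1, 21591 and 15454 CPM, and 18 of the 20 were lowest in replicate 3, where 34.8% of all genes at 1 CPM were.

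Schwann cell transcripts came next among non-blood types. Pmp22, a membrane protein of peripheral myelin, was at 3394, 3374 and 4429 per length in replicates 1, 2 and 3, rank 20 of all nuclear protein-coding genes. It was highest in replicate 3. Prx, or periaxin, was at 617 ± 89.3, Mbp, or myelin basic protein, at 558 ± 70.5, and Ncmap at 521 ± 38.2. The median defining myelin marker exceeded that of the satellite cell by 3.49 to 4.39 times. All 12 members of the list reached 10 CPM, as did 9280 of all 39059 genes. All 12 were highest in replicate 3, where 34.5% of all genes at 1 CPM were. With library totals left unscaled the number was 11. The summed list was at 6773, 6925 and 8480.4 CPM. The glial genes of non-myelinating Schwann cells were lower: Sox10, the glial transcription factor, was at 125 ± 21.6, Erbb3, the neuregulin receptor, at 102 ± 23.3, S100b at 92.4 ± 9.62 and Ngfr, the low-affinity nerve growth factor receptor, at 26.2 ± 5.85. The sodium channel gene Scn7a was at 141 ± 37.3 and the cadherin Cdh19 at 129.6 ± 34.2. Gfap had 16, 4 and 11 reads, and 9 of the 11 members at 1 CPM were highest in replicate 3.

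Fibro-adipogenic progenitor genes were led by Gsn and by matrix transcripts. Gsn, or gelsolin, an actin-severing protein, was at 2123 ± 40.8 per length, Col3a1 at 1282 ± 106, Dcn, or decorin, at 980.3 ± 85.5, and Col1a2 at 451 ± 21.6. The defining genes Dpt, or dermatopontin, and Col1a1 were at 402 ± 45.3 and 341 ± 26.4. The 2 defining surface genes were much lower, Ly6a, which encodes Sca-1, at 53.5 ± 10.9 and Pdgfra, the receptor that marks these cells, at 31.9, 24.1 and 47.7 in replicates 1, 2 and 3. Dcn exceeded Pdgfra per length by 22.5 to 37.6 times within a library. The list summed to 7974, 8181 and 7863 CPM, nearly level over the libraries. Tendon genes were low apart from Tnmd, or tenomodulin, at 224 ± 24.01, Thbs4, a thrombospondin, at 113 ± 16.7, and Fmod, or fibromodulin, at 67.7 ± 10.2. The tendon transcription factors Scx and Mkx had 30, 11 and 13 and 49, 30 and 28 reads, and Sox9, a factor of cartilage, was at 19.3 ± 2.84.

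Endothelial genes were moderate and uneven. Cdh5, the vascular cadherin, was at 157, 95.3 and 118 CPM in replicates 1, 2 and 3, and Pecam1 at 156, 89.997 and 119.6 CPM. Both were highest in replicate 1 and lowest in replicate 2. Tek, the angiopoietin receptor that some satellite cells also carry, was nearly level at 82.6, 74.8 and 83.4 CPM. Tie1 was at 55.4, 26.2 and 35.4 CPM and Kdr, a receptor for vascular endothelial growth factor, at 77.6, 40.7 and 54.9 CPM. Fabp4, a fatty acid binding protein that adipocytes also make, was the most abundant list member per length at 255 ± 72.2, followed by Cldn5, a claudin, at 201 ± 59.2, and Esam, an endothelial adhesion molecule, stood at 136 ± 19.5. Of 20 members, 16 were highest in replicate 1 and 19 lowest in replicate 2, where 27.9% and 36.5% of all genes at 1 CPM were. The list summed to 1338, 865 and 1104 CPM. Replicate 1 was also the library with Xist and without Y-linked reads, and the part of that difference in the endothelial values was not tested. The median defining endothelial marker lay below that of the satellite cell, at 0.472 to 0.545 of its level.

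Blood cell transcripts differed by type. The haemoglobin genes were high for their length: Hbb-bs was at 3212, 4629 and 5800.4 in replicates 1, 2 and 3, with Hba-a1 at 2049 ± 482, Hbb-bt at 703 ± 266 and Hba-a2 at 588 ± 171. Replicate 1 was the lowest library for each of these 4 genes, and for 8 of 8 erythroid genes at 1 CPM, where 28.8% of all genes at 1 CPM were. Alas2, an enzyme of erythroid haem synthesis, was at 22.9, 33.5 and 50.02 CPM. The haemoglobin genes are near-identical in pairs, so the split within a pair is uncertain. Genes of macrophages and lymphocytes were scarce. Ptprc, the leukocyte antigen CD45, was at 10.5, 2.51 and 15.5 CPM, Csf1r, the macrophage growth factor receptor, at 4.34, 3.14 and 2.898 CPM, Adgre1, or F4/80, at 1.14, 1.26 and 1.76 CPM and Cd68 at 5.14, 3.46 and 7.18 CPM. Itgam had 3, 0 and 6 reads. The highest macrophage members per length were Lyz2, or lysozyme, at 78.98 ± 19.7 and Cd74, the invariant chain, at 46.1 ± 35.1, and Tyrobp, a signalling adaptor of myeloid cells, stood at 16.03 ± 4.44. The whole macrophage list summed to 95.1, 52.9 and 132 CPM. The neutrophil genes S100a9 and S100a8 were at 339 ± 58.9 and 162 ± 51.3 per length, above the other genes of their list, of which Retnlg was at 27.3 ± 11.6 and the B cell gene Cd79a at 6.64 ± 4.16. Kit, the mast cell receptor, was at 9.71, 5.34 and 7.69 CPM. Over the 3 libraries Cd3e had 8 reads, Cd3d 7, Nkg7 3 and Cpa3 29.

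The adipocyte's defining genes were close to 0. Over the 3 libraries Adipoq, or adiponectin, had 8 reads, Plin1 4, Cidec 1 and Lep, or leptin, 1. Lipid genes that other cells also make were read, among them Pnpla2, a triglyceride lipase, at 114 ± 6.52 per length, Plin4, a lipid droplet coat protein, at 100.2 ± 9.56, and Lpl, or lipoprotein lipase, at 56.3 ± 7.14.

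**Figure D3:**
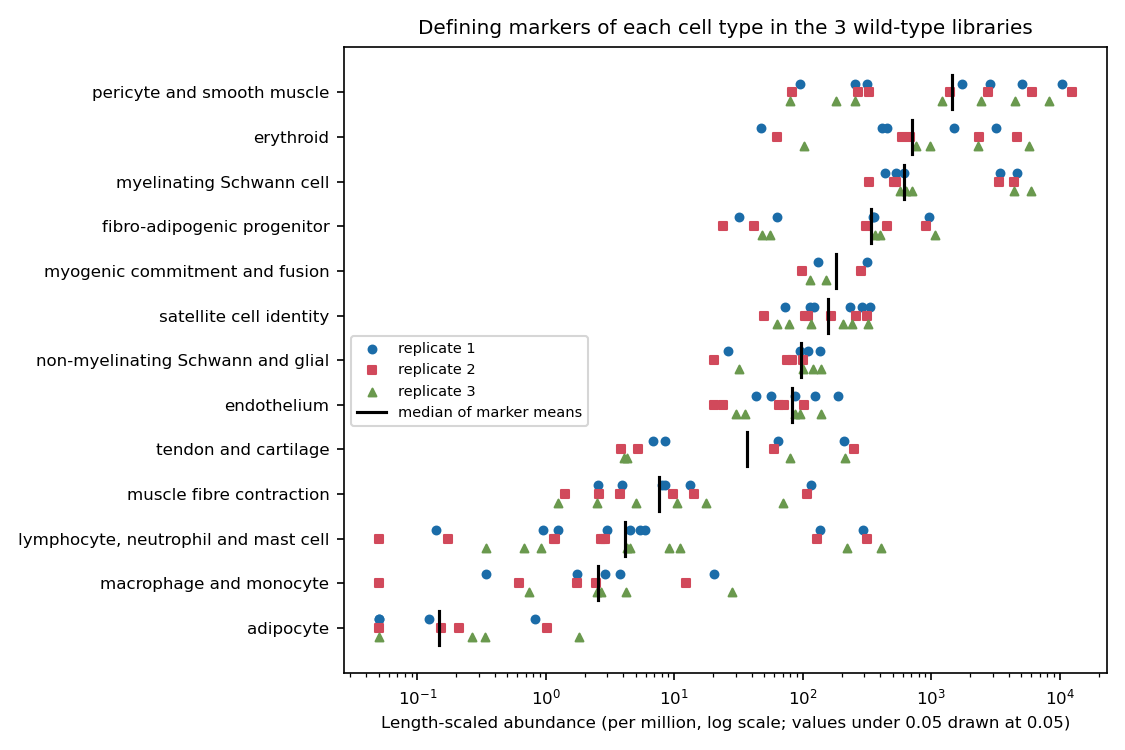
Length-scaled abundance (log scale) of the defining markers of 13 cell types or states in the 3 wild-type libraries; each point is a marker in a library and the black bar is the median of the markers' means. The smooth muscle median stands at 1444 and the myelinating Schwann cell median at 617, both to the right of the satellite cell median of 156, with macrophage and adipocyte markers at the lower end.

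Set against the label, the libraries held every defining satellite cell gene, but on the scale that allows genes to be compared the defining genes of smooth muscle, erythroid cells, myelinating Schwann cells and fibro-adipogenic progenitors had higher medians. The erythroid median was 703, against 156 for the satellite cell, and that of fibro-adipogenic progenitors exceeded the satellite cell median by 1.97 to 2.26 times. The share of cells of each type was not measured, and the level of a marker per cell differs between genes. The name satellite cells is therefore used here as the labels give it.

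Apart from Pcna, genes of DNA replication and mitosis had mean length-scaled abundances below 103, the median of the satellite cell identity list. Both lists were uneven between the 3 libraries. Pcna, the sliding clamp of DNA polymerase, was the highest at 314, 393 and 399 per length, followed in the replication list by Mcm4, a subunit of the replicative helicase, at 68.8 ± 11.5, Slbp, the histone mRNA binding protein, at 56.96 ± 4.45, and Rrm1, of ribonucleotide reductase, at 42.9 ± 9.39. The mitosis list was led by Cdc20, an activator of the anaphase-promoting complex, at 37.4 ± 7.02, Mki67, the proliferation marker, at 36.1 ± 22.8, Top2a, topoisomerase II, at 32.01 ± 25.9, and Ccna2, or cyclin A2, at 20.8 ± 16.3. The median member stood at 14.95 for replication and 8.57 for mitosis. In CPM, Pcna was at 151, 209.7 and 194 in replicates 1, 2 and 3, Mki67 at 50.04, 139 and 42.8, Top2a at 34.96, 124 and 27.1, and Ccna2 at 9.83, 35.97 and 8.95. Replicate 2 was the highest for each on this scale, by a small margin for Pcna.

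The same library was highest for every member of both lists. Of the 24 replication genes, 24 were highest in replicate 2, and of the 24 mitosis genes 24, where 37.6% of all genes at 1 CPM were. Among members at 10 CPM, 8 of 14 replication genes and 11 of 13 mitosis genes were at least 1.5-fold above both other libraries in replicate 2, against 1.84% of all genes at 10 CPM. The limit is on the mean of the 3 libraries. Members such as Ccna2 and Cdk1, under 10 CPM in replicates 1 and 3, passed it only through replicate 2, which raises these 2 counts. The 2 lists together summed to 775, 1515 and 839 CPM in replicates 1, 2 and 3. Without replicate 2 their mean was 822 CPM. The clustered histone genes, whose RNA accumulates in S phase, went the same way. This group was chosen after its values were seen. The histone genes summed to 1098, 2761 and 897 CPM, and 55 of the 56 at 1 CPM were highest in replicate 2. Hist1h3c was at 10.3, 72.2 and 5.92 CPM and Hist1h2ab at 10.3, 70.99 and 7.18 CPM. Histone genes share near-identical coding sequence, which makes the count of any 1 member uncertain. Gm42418 and Lars2 were high in the same library, and their part in these values was not tested.

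The promoters of 4 mitosis genes, highest in replicate 2 like the whole list, are printed here. Promoters of this class are known to carry the cell cycle homology element, TTTGAA, and CCAAT boxes. These elements take part in the timing of such genes within the cell cycle. All 4 printed promoters hold both motifs. They are the 250 bases before the RefSeq start site (build GRCm38.p6), printed 5′ to 3′ on the gene's strand, with matches to TTTGAA, to CCAAT or their reverse complements in capitals.
Top2a, chr11:99024190-99024439, minus strand: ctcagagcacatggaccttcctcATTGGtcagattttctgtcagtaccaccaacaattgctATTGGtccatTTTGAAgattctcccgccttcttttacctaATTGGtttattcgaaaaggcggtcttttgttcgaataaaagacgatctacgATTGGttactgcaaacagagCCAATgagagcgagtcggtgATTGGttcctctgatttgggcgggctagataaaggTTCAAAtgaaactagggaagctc
Mki67, chr7:135716380-135716629, minus strand: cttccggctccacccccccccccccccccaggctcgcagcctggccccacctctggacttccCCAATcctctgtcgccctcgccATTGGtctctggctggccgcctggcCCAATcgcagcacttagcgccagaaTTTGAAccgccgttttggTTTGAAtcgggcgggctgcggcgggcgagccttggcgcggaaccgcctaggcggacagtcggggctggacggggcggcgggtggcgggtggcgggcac
Cdk1, chr10:69352913-69353162, minus strand: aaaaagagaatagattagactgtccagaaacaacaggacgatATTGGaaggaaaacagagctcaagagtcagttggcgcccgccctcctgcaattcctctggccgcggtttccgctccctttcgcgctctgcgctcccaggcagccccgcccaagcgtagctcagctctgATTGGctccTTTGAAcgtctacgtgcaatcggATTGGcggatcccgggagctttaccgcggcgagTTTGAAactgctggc
Ccnb2, chr9:70421555-70421804, minus strand: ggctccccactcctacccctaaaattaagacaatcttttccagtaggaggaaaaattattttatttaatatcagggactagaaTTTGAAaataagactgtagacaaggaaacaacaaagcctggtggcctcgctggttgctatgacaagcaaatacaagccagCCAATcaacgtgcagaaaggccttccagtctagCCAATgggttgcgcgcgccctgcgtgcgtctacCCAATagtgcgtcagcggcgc
In replicates 1, 2 and 3, Cdk1, the kinase that drives entry into mitosis, was at 6.398, 21.99 and 7.43 CPM, and Ccnb2, its partner cyclin B2, at 4.46, 9.42 and 2.39 CPM. Windows were available for 20 of the 24 mitosis genes. Of these genes, 18 (90%) held CCAAT and 8 (40%) held TTTGAA on either strand in a window, against 37.5% and 18.3% of all 27025 genes in the table. The 4 printed genes are among the 8 that held both, so they do not stand for the whole list. For the replication list the shares were 70% and 10% of 20 genes, and for the satellite cell identity list 21.1% and 15.8% of 19 genes. They were 42.9% and 7.14% of 14 smooth muscle genes, and 47.8% and 8.70% of 23 immediate early genes. A match of 1 motif can share at most 1 letter with a match of the other, and a match is a description of the sequence only.

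Each of 4 genes for inhibitors of cyclin-dependent kinases was more abundant per length than any gene of the mitosis list. Cdkn1c stood at 458, 512 and 378 per length in replicates 1, 2 and 3 and exceeded Mki67 by 18.4, 8.23 and 17.97 times. Cdkn1b, which encodes p27, was at 268 ± 47.9, Cdkn1a, which encodes p21, at 179 ± 33.6, and Cdkn2d at 98.2 ± 0.6595. Cdkn2a, the locus of p16 and p19, had 1, 1 and 0 reads. Of the D cyclins, Ccnd1 was at 73.6, 105 and 57.95 CPM, Ccnd2 at 103, 121 and 115 and Ccnd3 at 81.1, 91.9 and 65.4, each highest in replicate 2. Of the pocket proteins that hold E2F factors, Rb1 was at 66.3 ± 6.64 per length, Rbl2 at 41.2 ± 6.47 and Rbl1 at 9.904 ± 1.5003.

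**Figure D4:**
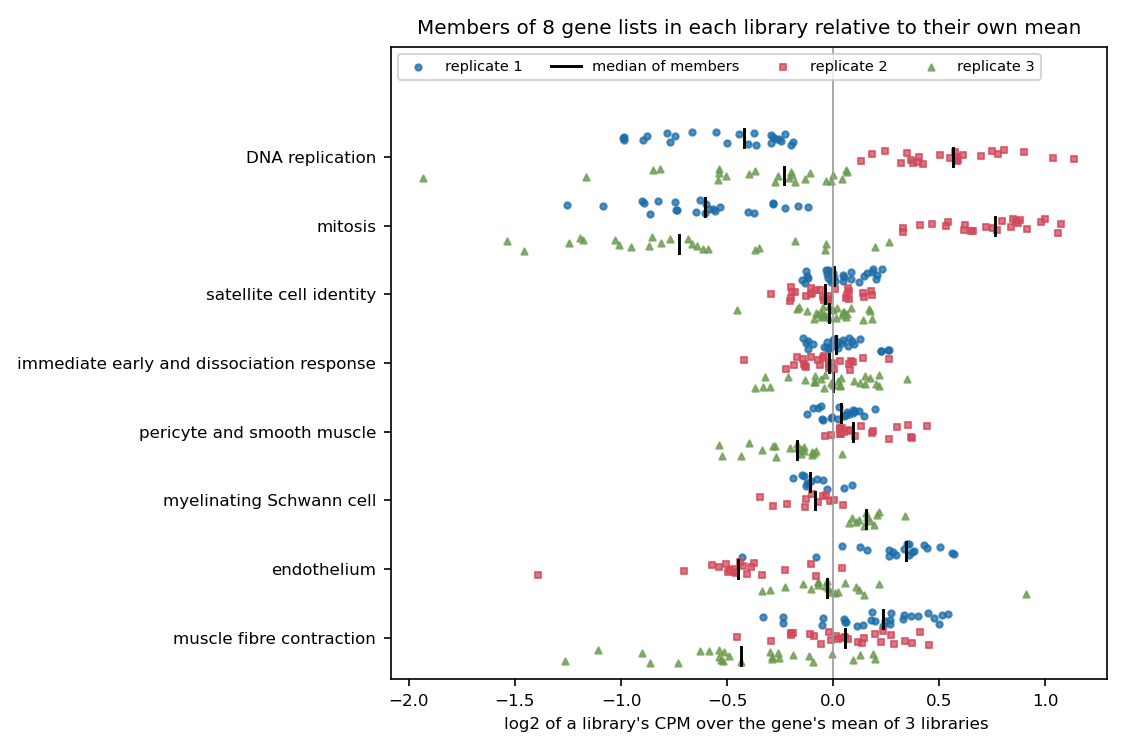
For the members at 1 CPM or more of 8 gene lists, the log2 of each library's CPM over the gene's own mean of the 3 libraries (horizontal); points are genes, colours are libraries and black bars are the medians of the members. Replication and mitosis genes sit to the right of 0 in replicate 2, endothelial genes to the right in replicate 1, fibre genes to the left in replicate 3, and identity and immediate early genes lie near 0 in all 3.

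Growth factor receptors and imprinted growth genes completed the baseline. Pdgfrb led the receptors at 279 per length, followed by Il6st, the shared subunit of interleukin-6 family receptors, at 249 ± 42.8, Tgfbr3, or betaglycan, at 208 ± 53.6, and Bmpr1a at 186 ± 15.2. In CPM, 16 of 20 receptors were highest in replicate 3 and 16 lowest in replicate 2, against 34.5% and 36.5% of all genes at 1 CPM. In the imprinted list Cdkn1c, Gnas at 423 ± 38.7, H19 at 267 ± 29.6 and Peg3 at 265 ± 73.9 were the highest. Peg3 was at 828, 532 and 821 CPM and so lowest in replicate 2. Igf2, the fetal insulin-like growth factor, was at 206, 240.1 and 178 CPM and Igf1 at 56.9, 65.97 and 69.9 CPM. Dlk1 was at 19.4, 17.4 and 12.98 CPM, while Rian, a noncoding RNA of the same imprinted region, was at 500.2, 542 and 538 CPM. Lmna itself was at 711, 715 and 889 per length, rank 172 of nuclear protein-coding genes.

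The spread between replicates was small for most genes. The common biological coefficient of variation was 0.138, estimated by edgeR over 13262 genes. Without replicate 2 it was 0.102, and without replicate 1 0.166. For genes at 10 CPM or more the median coefficient of variation was 10.6%, beside a median expected counting error of 5.84%. At 1 to 10 CPM the 2 figures were 21.96% and 19.5%, and above 1000 CPM they were 11.3% and 0.926%. A coefficient from 3 libraries lies below its true value more often than above it, so the 2 figures are not on the same footing. The share of the spread that is counting error was not computed. Of 9280 genes at 10 CPM, 161 (1.73%) differed at least 2-fold between their highest and lowest library, and without replicate 2 the number was 29. Replicate 2 lay at least 1.5-fold above both others for 171 genes and below both for 82 (0.884%). For replicate 1 the numbers were 23 and 27, or 0.248% and 0.291%, and for replicate 3 they were 22 and 59, or 0.237% and 0.636%. Across genes, log2 CPM correlated at 0.987 between replicates 1 and 3, 0.9798 between 1 and 2 and 0.977 between 2 and 3, a description over genes, which are not replicates.

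The limit of 10 CPM is on the mean of the 3 libraries, so a gene such as H2-Aa can pass it through 1 library. The genes that stood furthest above both other libraries, among nuclear protein-coding genes at 10 CPM, differed by library. In replicate 1 they were Glycam1, a mucin of high endothelial venules, at 82.04, 0 and 28.2 CPM, where 0 reads in replicate 2 allow up to 0.471 CPM, and Btnl9, Ushbp1, Rasgrp3 and Sox17, 1.81 to 2.08 times above the next library. Sox17 is an endothelial transcription factor. In replicate 2 they were 5 histone genes, Hist1h2ai, Hist1h3b, Hist1h3c, Hist1h2ab and Hist1h2bk, at 6.63 to 8.08 times. In replicate 3 they were H2-Aa, a class II antigen-presenting molecule, at 7.31, 2.04 and 24.1 CPM, the complement gene C3 at 60.3, 19.9 and 129.8 CPM, and Dusp18, Lyve1 and Igip, 1.63 to 1.79 times above the next library. Lyve1 is a receptor of lymphatic endothelium and some macrophages. Of the satellite cell defining genes, Cdh15 was the only one to lie 1.5-fold below or above both other libraries, in replicate 3. The coefficient of variation was 4.34% for Myf5, 1.91% for Vcam1, 9.73% for Itga7, 11.7% for Calcr and 13.5% for Pax7, and 23.3% for Cdh15. Acta2 was at 26.2%, Pmp22 at 14.2%, Myog at 35.8% and Mki67 at 69.4%.

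**Figure D5:**
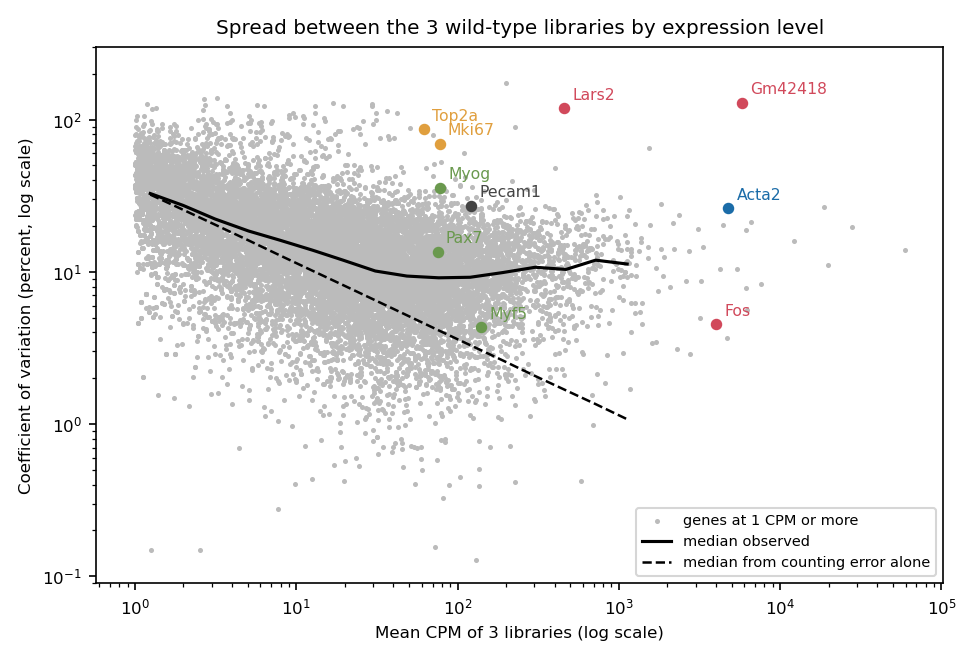
Coefficient of variation over the 3 wild-type libraries (percent, log scale) against mean CPM (log scale) for the genes at 1 CPM or more. The solid line is the median observed value by level and the dashed line the median value expected from counting error. Fos and Myf5 lie below the solid line, Pax7 somewhat above it, and Mki67, Top2a, Lars2 and Gm42418 far above it.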

How the data were processed

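The deposited files hold raw counts, whole reads per Ensembl gene, 1 file per library, with the counter's summary lines at the end. Trimmomatic 0.32, STAR 2.5.2b, HTSeq 0.6.1 and the build mm10 are named in the submitters' processing notes. Their settings, with the strand option and the gene annotation, were not given in the sources used here. Summary lines held 45.3 to 48.3% of all reads in a file, of which reads placed at several sites were 20.5 to 24.003% and reads outside genes 23.4 to 23.9% of the file. They were left out of totals. Since reads placed at several sites were not counted, genes with near-identical copies may be undercounted. Exons of 132 of the 409 list genes (32.3%) overlap another gene, and reads of such pairs may not be separable.

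Of 39059 identifiers, 38861 matched GENCODE M21, which is on GRCm38, the assembly that mm10 names. CPM was computed in edgeR 4.0.16 (R 4.3.3) on gene totals scaled by TMM over the 3 wild-type libraries, and length-scaled abundance from the union of each gene's exons. The common biological coefficient of variation came from edgeR with its filter at a minimum count of 10, and the script was tested on simulated data. DESeq2 1.42.0 size factors were an alternative scaling. Tables were made in Python 3.11.15. A single group allows no comparison between groups, so counts of genes are set beside the share of all genes that meets the same rule.

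The libraries, the 23 gene lists and the rule for named genes were chosen with earlier results of these data known. The rule names the 6 marker genes, Lmna and Mki67, the highest genes on each scale, the 4 highest members and the defining markers of each list, and the 5 genes standing furthest above the other libraries in each. Other genes named, Lars2 among them, were chosen after their values were seen. A few genes that the rule names are not reported here.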

Additional observations from a re-analysis of the deposited data

How the results depend on the processing

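Of 48 alternative values over 7 results, 39 stayed within the spread between libraries or, for counts of genes, within 1.5 times the main count. Leaving out 1 library at a time, the common biological coefficient of variation, 0.138 over all 3, ran from 0.102 (without replicate 2) to 0.166 (without replicate 1). The number of genes with a 2-fold difference between libraries, 161 at 10 CPM, ran from 29 (without replicate 2) to 125, and was 1304 at a minimum of 1 CPM and 25 at a minimum of 50 CPM. The 5258 genes at 1 to 10 CPM had a median counting error of 19.5%, against 5.84% for those above. The summed satellite cell identity list, 4644 CPM, ran from 4551 to 4762 CPM without 1 library. It was 5090.0 CPM with mitochondrial, ribosomal protein, histone and haemoglobin genes and Gm42418 left out of the totals, and 3041 CPM without members whose exons overlap another gene. The smooth muscle list fell likewise from 18548 to 13407 CPM, as members were removed.

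The 8 counts of list members highest or lowest in a library stayed within 1.5 times under both other scalings. Unscaled totals moved the median of all genes in replicate 2 against replicate 1 by -0.11 on the log2 scale. Depth limits genes under 10 CPM, where the expected counting error was largest. No paired analysis was possible because a single group was described and no test was run. With 3 libraries, which differ in Xist and Y-linked reads, none of the values says how far another litter or sex would differ.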

Other observations

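A pair of gene groups, sterol synthesis and class II antigen presentation, was chosen after their values were seen. Of 18 genes of sterol synthesis at 1 CPM, 16 were lowest in replicate 1, where 28.8% of all genes at 1 CPM were. They summed to 1088, 1609 and 1622 CPM in replicates 1, 2 and 3. Hmgcs1, an early enzyme of the pathway, was at 423, 636 and 689 CPM, and Sqle, or squalene epoxidase, at 39.2, 67.5 and 65.4 CPM. Replicates 2 and 3 were above replicate 1 in the summed value and close to each other.

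The genes of class II antigen presentation summed to 43.1, 14.3 and 78.4 CPM in replicates 1, 2 and 3, so replicate 3 was the highest and replicate 2 the lowest. Cd74 was at 16.8, 3.46 and 26.8 CPM and H2-Ab1 at 7.54, 2.36 and 14.1 CPM. Lyve1 was at 13.3, 6.91 and 23.4 CPM. Cd74 and H2-Aa of this group are also on the macrophage list. Ptprc, which is not in this group, was at 10.5, 2.51 and 15.5 CPM, and the part of leukocytes in the class II values was not tested.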
